A study of Homo sapiens with 12 samples.

Results

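The 10 Notch pathway genes described here, the receptors NOTCH1, NOTCH2 and NOTCH3, the ligands JAG1, JAG2, DLL1 and DLL4, the coactivator MAML2 and the target genes HES1 and HEY1, were measured in urothelial carcinoma (UC) cells that overexpress the long noncoding RNA HOTAIR. Members were taken as every probe set of the array whose only gene symbol was 1 of these 10 names. This gave 31 probe sets of 49293 and 10 genes of 18132.

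The data were 12 PrimeView arrays of total RNA from 2 epithelial UC cell lines, VM-CUB1 and 5637, with 3 arrays in each of 4 groups. VM-CUB1_HOTAIR 20 and 5637_HOTAIR 4 are each a single clone stably transfected with the pLZRS-HOTAIR plasmid. VM-CUB1_LV and 5637_LV are each labelled a vector clone of the same line and carry the empty pLZRS vector. All 4 groups went through puromycin selection and were grown in DMEM with FCS. Within a group the replicates are separate RNA preparations of the same cells. The spread behind each p-value is therefore that of RNA preparations and may be technical. Each comparison sets a HOTAIR clone against a vector clone, and an effect of HOTAIR cannot be told apart from a trait of either clone. HOTAIR itself was not analysed here.

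Notch receptors are membrane proteins that are activated when a Jagged or Delta-like ligand on a neighbouring cell binds them. The bound receptor is cut first by an ADAM protease and then by the gamma-secretase complex, and the freed intracellular part enters the nucleus, where it joins the DNA-binding protein RBPJ and a Mastermind coactivator to switch on genes such as HES1 and HEY1. In the epithelium of the bladder and in carcinomas derived from it, Notch signalling is known for ties to squamous and basal differentiation and for roles on both sides of tumour growth.

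Each value is a log2 signal set by the authors to a median of 0 for each probe set over the 6 arrays of its line. A value therefore says how far an array lies above or below the middle of its own line, and neither the level of a gene nor a comparison of levels between genes or lines can be read from it. Gene values are means over the probe sets of the gene. Each line was tested with limma over all 18132 genes, and a gene counts as called where its p, adjusted by the method of Benjamini and Hochberg, was under 0.01.

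In VM-CUB1 cells 3 of the 4 ligands and the target HES1 were lower with HOTAIR and the receptor NOTCH2 was higher, while in 5637 cells none of the 10 genes was called. Of the 3 probe sets of the ligand DLL1, only 1 was called lower in VM-CUB1. The 5 calls in VM-CUB1 make 50% of the members and stand beside 41.6% of all genes called in that line, so the number of calls is near the background of this comparison. By direction, 1 of 10 was higher against 21.1% of all genes and 4 of 10 were lower against 20.5%. The median log2 fold change of the members was -0.15, and that of all genes was -0.03. The plot of array values shows the wide gaps of the ligands in VM-CUB1 and the narrow spread of every member in 5637.

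**Figure D1:**
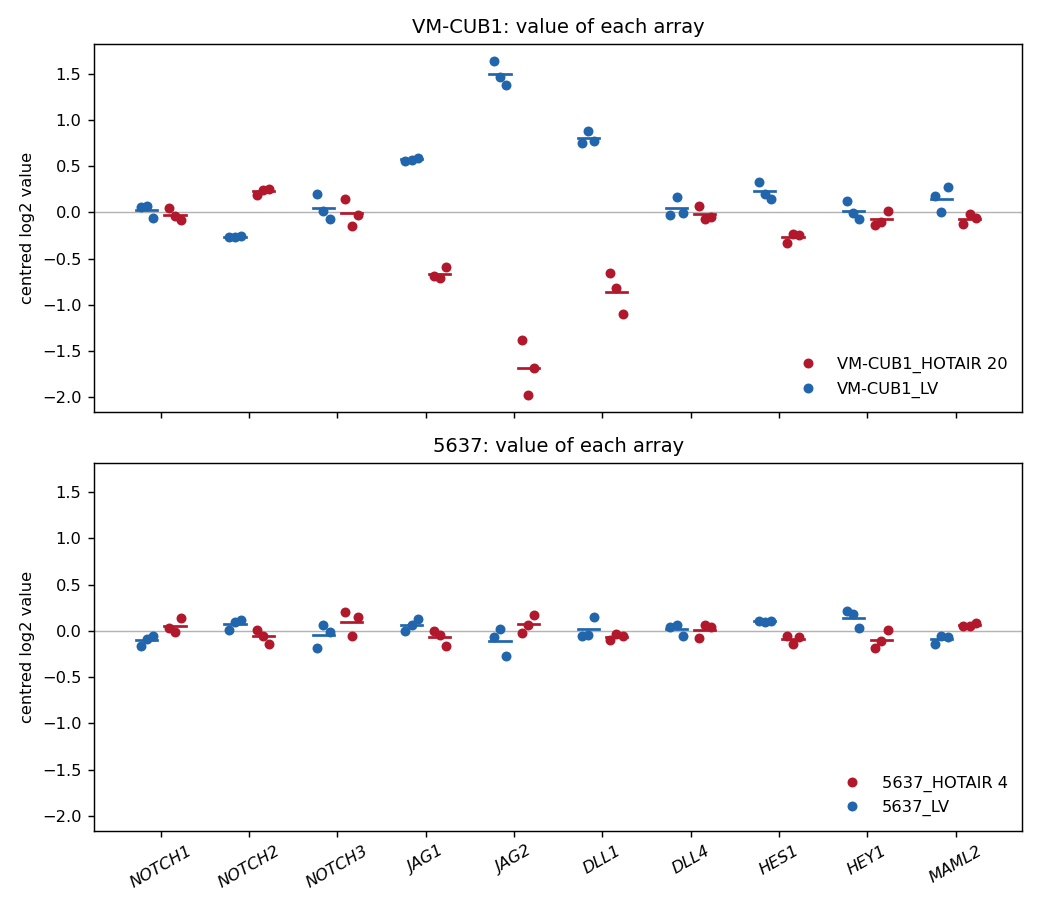
Centred log2 value of each array (vertical axis) for the 10 Notch genes (horizontal axis), with HOTAIR clones in red, vector cells in blue and a bar at each group mean, for VM-CUB1 (top) and 5637 (bottom). In VM-CUB1 the JAG2 arrays lie between -1.98 and -1.38 with HOTAIR and between 1.38 and 1.64 with vector, while in 5637 the JAG2 arrays of both groups overlap.

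JAG2, a Jagged ligand, had the largest change of the 10 genes by the mean of its probe sets. With HOTAIR its centred log2 values in VM-CUB1 were -1.38, -1.98 and -1.68. With vector they were 1.64, 1.46 and 1.38. Every HOTAIR array thus lay below every vector array, with a gap of 2.77 log2 units between the nearest arrays. The log2 fold change was -3.17 (SE 0.141, 95% confidence interval -3.50 to -2.85, limma adjusted p = 2.7e-07), a signal 9.03-fold lower, and 1.56% of all genes changed by more. JAG2 is measured by 1 probe set (11723896_a_at). Here as in the other results from bulk RNA, fewer cells that express a gene and less RNA per cell cannot be told apart.

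DLL1, a Delta-like ligand, had mean centred values of -0.66, -0.82 and -1.10 with HOTAIR. The vector arrays were at 0.75, 0.88 and 0.77. The groups did not overlap, and the log2 fold change was -1.66 (SE 0.107, limma adjusted p = 2.6e-06), 3.16-fold lower. This mean hides a split between the 3 probe sets of the gene. Probe set 11724938_at gave -2.21, -2.01 and -2.73 with HOTAIR and 2.01, 2.38 and 2.20 with vector, a log2 fold change of -4.52 (SE 0.180, limma adjusted p = 2.8e-07) or 22.9-fold lower. On 11724937_a_at the log2 fold change was -0.34 (limma adjusted p = 0.0199) and on 11760768_at it was -0.12 (limma adjusted p = 0.684), neither of which was called. Both the size of the fall of DLL1 and whether it is called therefore depend on the probe set that is read.

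JAG1, the other Jagged ligand, fell as well. Its gene values were -0.69, -0.71 and -0.59 with HOTAIR. In the vector cells they were 0.56, 0.57 and 0.59. The 2 groups lay 1.15 log2 units apart at their nearest arrays, and the log2 fold change was -1.24 (SE 0.055, limma adjusted p = 2.8e-07), 2.36-fold lower. Of 6 JAG1 probe sets 5 were called lower, with log2 fold changes from -0.75 to -1.97. The sixth, 11720826_s_at, was at -0.24 (limma adjusted p = 0.0749).

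DLL4, a Delta-like ligand best known from endothelial cells, did not pass the test. Its HOTAIR arrays in VM-CUB1 were at 0.07, -0.07 and -0.05 and its vector arrays at -0.03, 0.17 and -0.01. These ranges overlap, and the log2 fold change was -0.06 (95% confidence interval -0.23 to 0.11, limma adjusted p = 0.546).

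Among the receptors only NOTCH2 passed the test in VM-CUB1. It was at 0.19, 0.24 and 0.25 with HOTAIR and at -0.27, -0.27 and -0.26 with vector. The groups were 0.44 log2 units apart, a small gap beside those of the ligands but wide against the spread of the arrays. The log2 fold change was 0.49 (SE 0.051, limma adjusted p = 5.4e-05), 1.40-fold higher, and 27.6% of all genes changed by more. Of 5 NOTCH2 probe sets 4 were called higher, at 0.42 to 0.84, and 11745417_a_at was at -0.08 (limma adjusted p = 0.341). The lowest of the 4, 11745769_a_at at 0.42, kept its call in 1 of 6 fits that left out an array, losing it without any 1 of the HOTAIR replicates 1, 2 and 3 or the vector replicates 1 and 2 (adjusted p 0.0109 to 0.0212). A further 4 probe sets that list NOTCH2 together with other symbols were not used.

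NOTCH1 and NOTCH3, the receptors that mark basal epithelium and mural cells in textbook accounts, gave no call in VM-CUB1. The NOTCH1 values were 0.05, -0.04 and -0.08 with HOTAIR against 0.06, 0.07 and -0.06 with vector, and the log2 fold change was -0.05 (95% confidence interval -0.19 to 0.10). Its 3 probe sets ran from -0.23 to 0.23, with none called. NOTCH3 was at 0.15, -0.15 and -0.03 with HOTAIR and at 0.20, 0.02 and -0.07 with vector, for a log2 fold change of -0.06 (95% confidence interval -0.28 to 0.16). Both genes overlapped between the groups.

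MAML2, a Mastermind-like coactivator of the Notch complex, stayed short of the threshold. Its HOTAIR arrays were at -0.13, -0.02 and -0.06 and its vector arrays at 0.18, 0.00 and 0.27, so the groups stood apart by 0.03 log2 units. The log2 fold change was -0.22 (SE 0.077, limma adjusted p = 0.0412). Without vector replicate 2 MAML2 was at -0.30 and was called (limma adjusted p = 0.00835). One of its probe sets, 11759346_a_at, was called at -0.47 (limma adjusted p = 0.0091), but only 1 of 6 fits without an array kept it, that without vector replicate 2. The other, 11740258_a_at, was at 0.02.

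HES1, a basic helix-loop-helix repressor and the best known direct target of Notch, was lower with HOTAIR in VM-CUB1. Its values were -0.33, -0.23 and -0.25 with HOTAIR and 0.33, 0.20 and 0.15 with vector. The groups were apart by 0.38, and the log2 fold change was -0.50 (SE 0.065, limma adjusted p = 0.00023), 1.41-fold lower. Only 2 of its 5 probe sets were called. Probe set 11716550_at was at -1.09 (SE 0.109) and 11716551_s_at at -1.02 (SE 0.101). The other 3, 11760345_a_at, 11760346_at and 11760347_x_at, were at 0.05, -0.25 and -0.17.

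HEY1, a related repressor and Notch target, was at -0.14, -0.10 and 0.02 with HOTAIR and at 0.12, -0.01 and -0.07 with vector in VM-CUB1. These overlap, and the log2 fold change was -0.09 (95% confidence interval -0.25 to 0.08, limma adjusted p = 0.362). Counted over all 10 genes, the HOTAIR and vector arrays did not overlap for 6, against 58% of all genes. Of the 31 probe sets, 14 were called in VM-CUB1, 4 higher and 10 lower, beside 36.6% of all probe sets.

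The promoters of the 3 genes called lower that had an entry in RefSeq (GRCh38.p14) are shown because they fell together and because HES1 is the classical site of RBPJ binding. Each run is the 250 bases before the annotated start, 5′ to 3′, and capitals mark the RBPJ core TGGGAA, searched on both strands (TTCCCA on the other).
JAG1 (chr20:10674000-10674249, minus strand): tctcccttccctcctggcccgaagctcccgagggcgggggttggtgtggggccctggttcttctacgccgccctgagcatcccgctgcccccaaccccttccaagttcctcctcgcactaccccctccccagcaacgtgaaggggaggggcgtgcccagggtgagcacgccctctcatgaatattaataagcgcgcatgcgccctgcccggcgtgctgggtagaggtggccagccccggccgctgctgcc
JAG2 (chr14:105168777-105169026, minus strand): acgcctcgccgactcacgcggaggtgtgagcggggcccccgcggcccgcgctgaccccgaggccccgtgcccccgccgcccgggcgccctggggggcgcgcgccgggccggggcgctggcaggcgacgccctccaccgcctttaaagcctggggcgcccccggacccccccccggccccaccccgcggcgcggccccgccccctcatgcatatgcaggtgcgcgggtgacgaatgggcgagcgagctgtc
HES1 (chr3:194135898-194136147, plus strand): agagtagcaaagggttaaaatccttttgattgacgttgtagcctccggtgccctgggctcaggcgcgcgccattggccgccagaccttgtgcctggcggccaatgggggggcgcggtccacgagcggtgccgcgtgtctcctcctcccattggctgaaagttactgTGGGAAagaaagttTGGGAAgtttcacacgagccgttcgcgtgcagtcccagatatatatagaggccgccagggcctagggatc

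Only HES1 held the motif among the 8 members with a promoter entry, which were all but DLL1 and HEY1. Both of its copies lie on the strand of the gene within the 250 bases. Of 35116 RefSeq promoters of 300 bases, 250 before and 50 after the start, 24% held at least 1 copy and 3.8% at least 2. These matches describe letters in the window, and binding was not measured. Only exact copies of TGGGAA were searched, so a site with other letters would be missed in any of these promoters.

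In 5637 none of the 10 genes was called, where 29.9% of all genes were. At an unadjusted p under 0.05 in limma 5 genes passed, NOTCH1, NOTCH2, HES1, HEY1 and MAML2, and the unpaired t-test of the study's methods, run on the same values, called 1, HES1. The shares of all genes that passed in these 2 ways are not given here. These 2 counts therefore cannot be read as a result about the members. The 95% confidence intervals of the 10 genes lay between -0.40 and 0.37, so falls as large as those of JAG2, DLL1 and JAG1 in VM-CUB1 lie outside them. The median log2 fold change was -0.04, equal to that of all genes at this precision. The 2 groups did not overlap for 5 of 10 members, against 51.3% of all genes.

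HES1 came nearest to the threshold in 5637. It was at -0.05, -0.14 and -0.07 with HOTAIR and at 0.11, 0.10 and 0.11 with vector. All HOTAIR arrays were thus the lower ones, with a log2 fold change of -0.19 (SE 0.048, limma adjusted p = 0.0135). HEY1 was at -0.18, -0.11 and 0.01 with HOTAIR and at 0.21, 0.18 and 0.03 with vector, which gave -0.23 (SE 0.071, limma adjusted p = 0.0304) and a gap of 0.02. MAML2 was at 0.05, 0.05 and 0.09 with HOTAIR and at -0.14, -0.06 and -0.07 with vector, for a log2 fold change of 0.15 (SE 0.049, limma adjusted p = 0.0355). For the receptors, NOTCH1 had a log2 fold change of 0.15 (95% confidence interval 0.01 to 0.29), NOTCH2 of -0.14 (SE 0.059) and NOTCH3 of 0.14 (95% confidence interval -0.06 to 0.35).

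The ligands were all uncalled in 5637. JAG2 was at -0.02, 0.06 and 0.17 with HOTAIR and at -0.07, 0.02 and -0.27 with vector, for a log2 fold change of 0.18 (95% confidence interval -0.01 to 0.37). JAG1 was at -0.13 (95% confidence interval -0.27 to 0.02), DLL1 at -0.08 (95% confidence interval -0.23 to 0.07) and DLL4 at -0.01 (95% confidence interval -0.15 to 0.13). In each of the 4 ligands the arrays of the groups overlapped.

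Read by probe set, 5 of 31 were called in 5637, 1 higher and 4 lower, beside 24.3% of all probe sets. The DLL1 probe set 11724938_at, the one that fell in VM-CUB1, was at -0.28, -0.31 and -0.24 with HOTAIR and at 0.26, 0.24 and 0.36 with vector in 5637. That is a log2 fold change of -0.56 (SE 0.062, limma adjusted p = 0.00028), 1.48-fold lower, and it kept its call in all 6 fits without an array and all 6 other settings tried. The other DLL1 probe sets were at 0.09 and 0.24, so the mean over the gene was near 0. The plot of single probe sets shows this contrast.

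**Figure D2:**
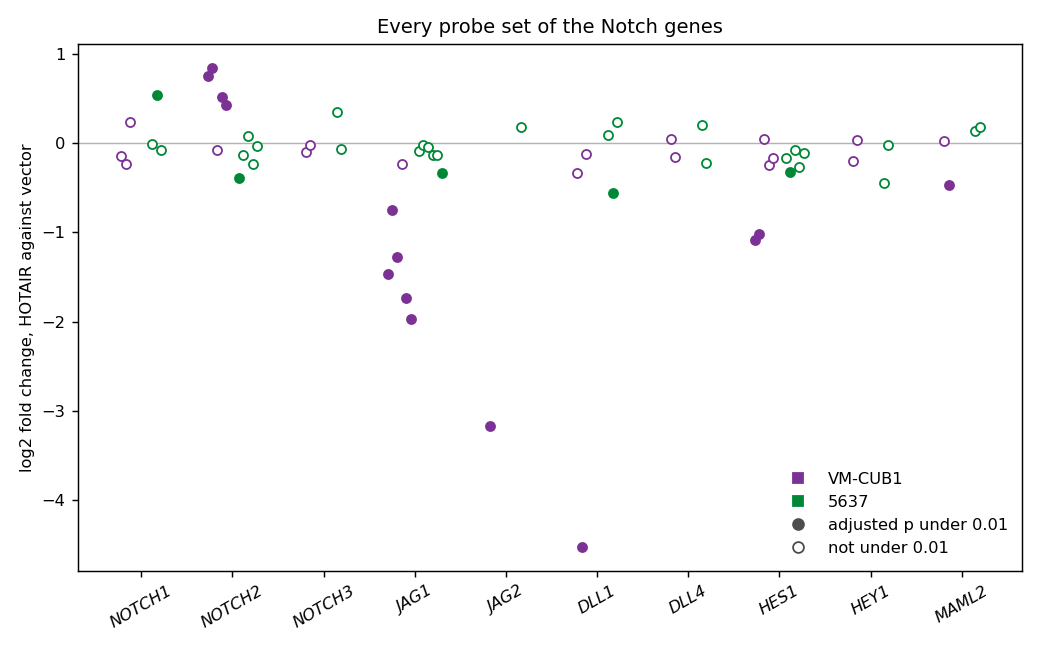
Log2 fold change, HOTAIR against vector (vertical axis), of each of the 31 probe sets, grouped by gene (horizontal axis), for VM-CUB1 (purple) and 5637 (green). Filled points have a limma adjusted p under 0.01. One DLL1 probe set lies at -4.52 in VM-CUB1 and -0.56 in 5637, apart from the other 2 of the gene.

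The 4 other calls in 5637 rested on fewer fits. The NOTCH1 probe set 11718260_at, at 0.54 (limma adjusted p = 0.00547), kept its call in 1 of 6 fits without an array, that without vector replicate 2. The HES1 probe set 11716551_s_at, at -0.32, kept it in 0 of 6. The JAG1 probe set 11751994_s_at, at -0.34, lost it without HOTAIR replicate 1, HOTAIR replicate 3 or vector replicate 3. The NOTCH2 probe set 11732189_at, at -0.39 in 5637 and 0.75 in VM-CUB1, lost its 5637 call without HOTAIR replicate 1 or 3.

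Whether HOTAIR went with a different change in the 2 lines was tested as the difference of the log2 fold changes, VM-CUB1 minus 5637, over all 12 arrays. This called 6 of the 10 genes, beside 42% of all genes. The difference was -3.35 for JAG2 (SE 0.180, limma adjusted p = 4.4e-09), -1.58 for DLL1 (SE 0.135) and -1.11 for JAG1 (SE 0.082). For NOTCH2 it was 0.63 (SE 0.074, limma adjusted p = 8.5e-06). These 4 differences were called in all 12 fits without an array.

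The difference of MAML2 was -0.38 (SE 0.092, limma adjusted p = 0.00365) and was lost without VM-CUB1_HOTAIR 20 replicate 1, 5637_HOTAIR 4 replicate 3 or 5637_LV replicate 1 (adjusted p 0.0101 to 0.0111). That of HES1 was -0.30 (SE 0.078, limma adjusted p = 0.00504) and was lost in 5 of 12 fits, those without VM-CUB1_HOTAIR 20 replicate 1, 5637_HOTAIR 4 replicate 1 or 3, or 5637_LV replicate 2 or 3 (adjusted p 0.0106 to 0.0155). NOTCH1 differed by -0.20 (95% confidence interval -0.39 to -0.01, limma adjusted p = 0.0708), NOTCH3 by -0.20 (-0.51 to 0.10), DLL4 by -0.05 (-0.26 to 0.16) and HEY1 by 0.15 (-0.08 to 0.37), none of them called. The plot of fold changes sets the intervals of both lines side by side.

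**Figure D3:**
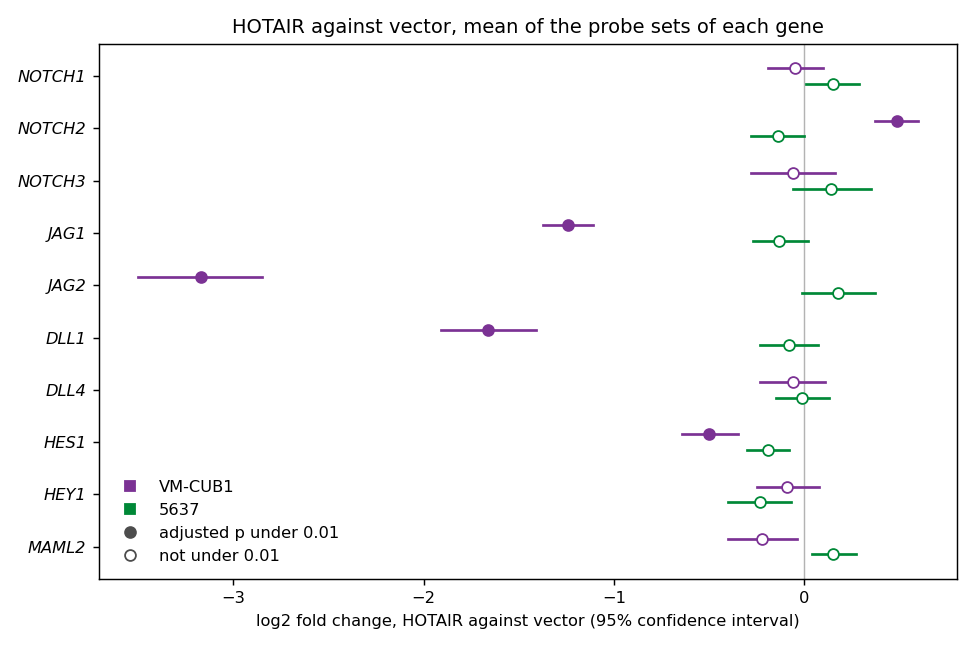
Log2 fold change, HOTAIR against vector (horizontal axis), with its 95% confidence interval for the 10 Notch genes, each the mean of its probe sets, in VM-CUB1 (purple) and 5637 (green). Filled points have a limma adjusted p under 0.01. JAG2, DLL1 and JAG1 in VM-CUB1 lie at -3.17, -1.66 and -1.24, and all 10 points of 5637 lie between -0.23 and 0.18.

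The VM-CUB1 arrays that were low in the ligands also differed in genes of epithelial and mesenchymal state. CDH1, which encodes the epithelial adhesion protein E-cadherin, was at a log2 fold change of -3.79, and EPCAM, an epithelial surface protein, was at -8.21. The 2 CDH1 probe sets were far apart, at -6.40 and -1.19. VIM, the mesenchymal filament vimentin, was at 9.87, and ZEB1, a repressor of epithelial genes, was at 4.25. In 5637 CDH1 was at 1.04, EPCAM at -0.21, VIM at -0.34 and ZEB1 at -0.05. The part of this shift in the Notch results was not tested. Of 22 measured markers of endothelial, mural or blood cells, 1 was called higher and 1 lower in VM-CUB1, and 5 higher and 1 lower in 5637. These are 9.09% of the markers in VM-CUB1, against 41.6% of all genes called, and 27.3% in 5637, against 29.9%. The mean centred value of these markers ran from -0.03 to 0.01 in VM-CUB1_HOTAIR 20, from -0.01 to 0.04 in VM-CUB1_LV, from 0.02 to 0.07 in 5637_HOTAIR 4 and from -0.12 to -0.01 in 5637_LV, and whether any of them is absent cannot be read from centred values.

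The remaining genes of the pathway were taken from a list of 58, of which 55 were measured. In VM-CUB1 15 of the 55 were called higher, 27.3% against 21.1% of all genes, and 16 lower, 29.1% against 20.5%. In 5637 8 were called higher, 14.5% against 14.7% of all genes, and 9 lower, 16.4% against 15.2%. The medians were -0.07 and -0.04. Of the 13 called in both lines, KAT2B rose in both, APH1A and NCSTN fell in both, and 10 went opposite ways. The share of opposite calls over all genes was not counted, so these 10 cannot be read as particular to the pathway. The paper reports opposite changes for many of the genes it found changed in both lines. The plot by role shows them around the 10 members. Genes named below beyond the 6 with the largest rise and the 6 with the largest fall in each line were chosen after their values were seen. Of the called genes named below, DLK2, HES5, HES6, EP300, KAT2A, TLE1, PSENEN, NUMB, DTX4, MIB2 and NEURL1B were each measured by 1 probe set.

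**Figure D4:**
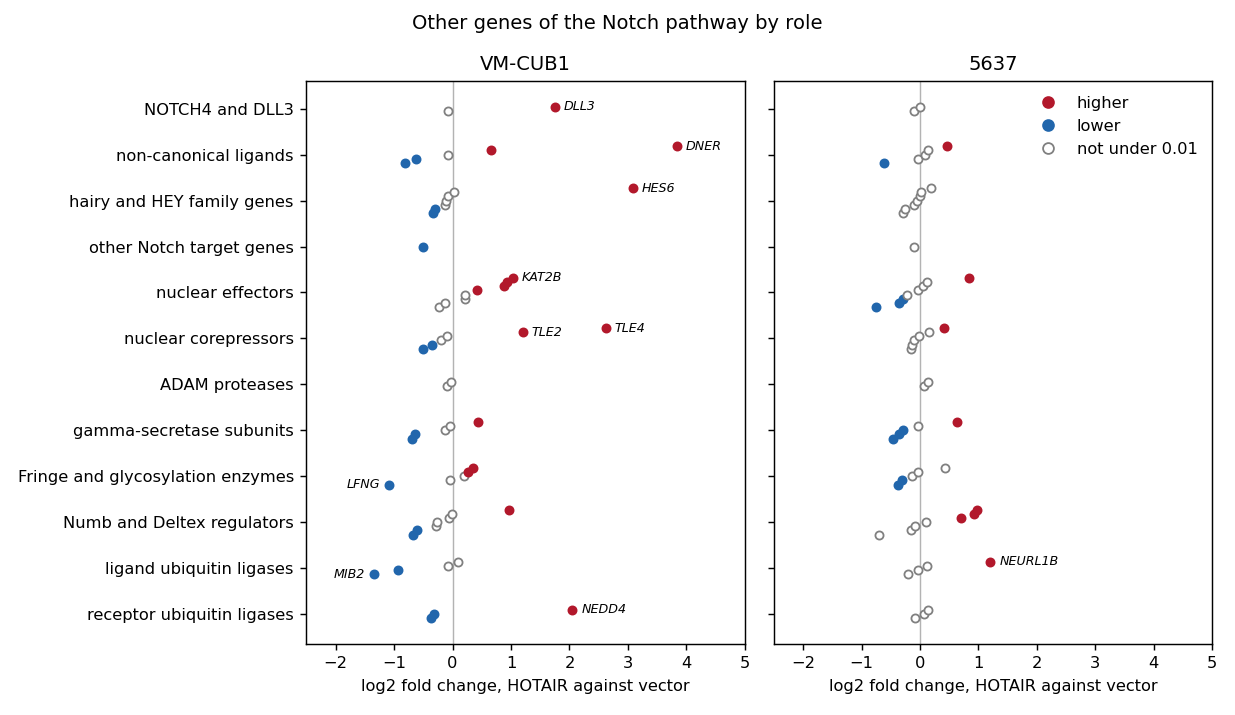
Log2 fold change, HOTAIR against vector (horizontal axis), of 55 further Notch pathway genes in rows by role, for VM-CUB1 (left) and 5637 (right). Red and blue points were called higher and lower at a limma adjusted p under 0.01, open points were not called, and genes at or beyond 1 log2 unit are named. DNER and HES6 lie farthest right in VM-CUB1, at 3.84 and 3.08, and NEURL1B lies farthest right in 5637, at 1.20.

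On the ligand side of VM-CUB1, not every gene went the way of JAG1, JAG2 and DLL1. DLL3, a Delta-like protein that does not activate receptors on neighbouring cells, rose by 1.75 (SE 0.171). DNER, a non-canonical ligand known from neurons, rose by 3.84 (SE 0.117), 14.3-fold, the largest change of the list, and DLK2, another non-canonical ligand, fell by 0.81 on the log2 scale (SE 0.095). The DLL3 probe sets ran from -0.13 to 3.05. Of the other non-canonical ligands CNTN1 was called lower at -0.63, with probe sets from -1.37 to 0.13, and EGFL7 higher at 0.66. Of the 4 ubiquitin ligases that act on ligands, 2 fell, MIB2 at -1.34 (SE 0.053) and NEURL1B at -0.93 (SE 0.210), and none rose, while 41.6% of all genes were called in that line and 20.5% were called lower. The call of NEURL1B was lost without HOTAIR replicate 1 or 3 (adjusted p 0.0199 to 0.0253). In 5637 NEURL1B instead rose by 1.20 (SE 0.081), while DNER was at -0.61 (SE 0.074), called lower, and DLL3 at -0.11 and MIB2 at 0.12 were not called. DLK2 was called higher there at 0.47 (limma adjusted p = 0.00323), a call lost without HOTAIR replicate 2 or 3 or vector replicate 1 or 3.

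Receptor processing showed changes in both lines. LFNG, a Fringe enzyme that adds sugars to Notch and alters which ligands it prefers, was at -1.09 in VM-CUB1 (SE 0.110), where its 2 probe sets gave -2.05 and -0.13, and at 0.43 in 5637 (limma adjusted p = 0.0165). Of the 5 measured gamma-secretase genes, APH1A was at -0.70 in VM-CUB1 and -0.36 in 5637 and NCSTN, the nicastrin gene, at -0.65 and -0.46, all called lower. APH1B went the other way in VM-CUB1, at 0.43 (SE 0.073), called higher. In 5637 it was called lower at -0.29, a call lost without any 1 of the 3 HOTAIR replicates or vector replicate 2. Its 6 probe sets ran from -0.11 to 0.74 in VM-CUB1 and from -0.64 to 0.08 in 5637. The 5 gamma-secretase genes thus gave 3 calls in VM-CUB1, 60% against 41.6% of all genes, and 4 in 5637, 80% against 29.9%. PSENEN, which encodes a small subunit of the complex, was at 0.63 in 5637 (SE 0.060) and at -0.04 in VM-CUB1. POGLUT1, an enzyme that glucosylates Notch, was at -0.38 in 5637, called lower, and at 0.26 in VM-CUB1, where 5 of 6 fits without an array, all but that without HOTAIR replicate 1, lost the call. The 2 ADAM proteases, ADAM10 and ADAM17, gave no call in either line.

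Genes that regulate or ubiquitinate the receptor followed. In 5637 the Deltex ligases DTX2, DTX3L and DTX4 rose, by 0.70 (SE 0.057), 0.92 (SE 0.059) and 0.98 (SE 0.061). DTX1 at 0.11 and DTX3 at -0.15 were not called there. The 7 Numb and Deltex genes measured gave 3 calls in each line, 42.9%, against 41.6% of all genes in VM-CUB1 and 29.9% in 5637. In VM-CUB1 DTX2 was at -0.61 and DTX3L at -0.67, both called lower, and DTX4 at -0.29 was not called. DTX1 and DTX3 were not called in VM-CUB1 either. The difference between the lines was called for DTX2, DTX3L and DTX4. NEDD4, a ubiquitin ligase of many membrane proteins, rose by 2.05 in VM-CUB1 (SE 0.064), 4.15-fold, and was at 0.14 in 5637, not called. The other 2 receptor ligases, ITCH at -0.32 (SE 0.060) and FBXW7 at -0.37 (SE 0.054), were called lower in VM-CUB1, the call of ITCH being lost without HOTAIR replicate 3, and neither was called in 5637. NUMB, an endocytic inhibitor of Notch, was called higher in VM-CUB1 at 0.96 (SE 0.139) and was at -0.70 in 5637 (limma adjusted p = 0.0467).

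Around the nuclear complex that MAML2 belongs to, the 8 effectors measured gave 4 calls in VM-CUB1, all higher, and 4 in 5637, of which 1 was higher. That is 50% in each line, near the 41.6% of all genes called in VM-CUB1 and above the 29.9% in 5637, from few genes. SNW1, a coactivator that also serves in splicing, was at 0.41 in VM-CUB1 and at -0.76 in 5637 (SE 0.046), called both times. The acetyltransferase gene KAT2B was at 1.03 in VM-CUB1, with probe sets from 0.27 to 2.08, and 0.84 in 5637, with probe sets from 0.29 to 1.75, and its relative KAT2A was at -0.36 in 5637, a call lost without HOTAIR replicate 1 or vector replicate 2. RBPJ, the DNA-binding partner of Notch, was at 0.22 in VM-CUB1 (limma adjusted p = 0.0115) and at 0.05 in 5637, not called in either. MAML3, the relative of MAML2, rose by 0.93 in VM-CUB1 as the mean of 4 probe sets that ran from -0.03 to 3.41. EP300, an acetyltransferase recruited to the complex, was at 0.88 in VM-CUB1 and at -0.29 in 5637, called both times, and its 5637 call was lost without HOTAIR replicate 1 or 3 or vector replicate 1 or 2. Of the Groucho-type corepressors TLE4 rose by 2.62 (SE 0.107), 6.14-fold, and TLE2 by 1.20 (SE 0.070) in VM-CUB1, where TLE1 was at -0.51, called lower. The VM-CUB1 probe sets ran from 1.20 to 3.51 for TLE4 and from 0.55 to 1.90 for TLE2. In 5637 TLE4 and TLE2 were at -0.16 and -0.02, not called. TLE3 was called higher in 5637 at 0.41 (SE 0.074), a call lost without vector replicate 1. In VM-CUB1 it was at -0.19, not called.

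Of the 7 further HES and HEY genes measured, 2 were called lower in VM-CUB1, 28.6% against 20.5% of all genes, and 1 higher. HES2, HES4, HES7 and HEYL were not called. NRARP, a target that feeds back on the Notch complex, was at -0.50 (SE 0.062, limma adjusted p = 0.00016), called lower. HES5 was at -0.33 and HEY2 at -0.30, both called lower. The HES5 call was lost without HOTAIR replicate 3, and the HEY2 call without HOTAIR replicate 2 or 3 or vector replicate 2 or 3. HES6, a relative of HES1 that opposes it in the mouse, rose by 3.08 (SE 0.077), 8.44-fold. In 5637 none of the 7 further HES and HEY genes nor NRARP was called, and HES6 was at -0.29 (limma adjusted p = 0.0391).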

How the data were processed

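Total RNA of 12 samples was hybridised to Affymetrix PrimeView arrays. The deposited log2 values were made by the authors in GeneSpring GX with RMA (background correction, quantile normalization and probe set summary), followed by a baseline transformation to the median. In the table this median is that of the 6 arrays of each line. The study's filter on signal above background was not applied, since centred values hold no level. Of 49395 probe sets 102 controls were left out, and 44988 with 1 gene symbol were averaged to 18132 genes. Probe sets with several symbols (1832) or none (2473) entered the test by probe set only. HOTAIR was compared with vector within each line, and the difference between lines over 12 arrays, with limma 3.58.1 in R 4.3.3 (lmFit and eBayes, two-sided), adjusted by the method of Benjamini and Hochberg over all genes or probe sets. Scripts were tested on simulated data. The small number of arrays limits the precision. The text names all 10 members and, per line, up to 6 further pathway genes that rose and 6 that fell most among those called. Other pathway genes are named after their values were seen. The members and gene lists were chosen with earlier results of these data known. Alternatives covered the rule for probe sets, the test, the threshold, the scaling, the replicate block and each array left out. Promoters come from RefSeq. Some genes of the lists are not reported here.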

Additional observations from a re-analysis of the deposited data

Results flagged for a closer look

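Over the 10 Notch genes, the 55 further pathway genes and the 4 reference genes, the limma test of the difference between the lines over 12 arrays called 42 at an adjusted p under 0.01. These were 6 of the 10 (60%), 32 of the 55 (58.2%) and the 4 reference genes. The same test called 7614 of all 18132 genes, 42%. All values are log2 fold changes in VM-CUB1 minus those in 5637. Among the 10 Notch genes the differences were 0.63 for NOTCH2, -1.11 for JAG1, -3.35 for JAG2, -1.58 for DLL1, -0.30 for HES1 and -0.38 for MAML2.

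Of further ligands, DNER differed by 4.45, DLL3 by 1.86, DLK2 by -1.28, CNTN1 by -0.77 and EGFL7 by 0.58. For the ubiquitin ligases the difference was -1.47 for MIB2, 0.30 for MIB1, -2.13 for NEURL1B, 1.91 for NEDD4, -0.44 for FBXW7, -1.31 for DTX2, -1.59 for DTX3L and -1.27 for DTX4. NUMB differed by 1.66. LFNG differed by -1.53, POGLUT1 by 0.64, POFUT1 by 0.66, APH1A by -0.33, APH1B by 0.72 and PSENEN by -0.67. In the nucleus HES6 differed by 3.37, TLE4 by 2.77, TLE2 by 1.22 and SNW1 by 1.17. Also there, the difference was -0.66 for TLE1, -0.60 for TLE3, -0.24 for CTBP1, 1.17 for EP300, 0.44 for MAML1, 0.81 for MAML3, -0.33 for HES5 and -0.39 for NRARP. The reference genes of epithelial and mesenchymal state differed by -4.83 for CDH1, -8.00 for EPCAM, 10.21 for VIM and 4.30 for ZEB1.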

How the results depend on the processing

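The 5 calls in VM-CUB1 (JAG1, JAG2, DLL1, HES1, NOTCH2) held in all 6 fits without an array and in every other setting that measured the gene. For DLL1 all of these fits and settings kept its only called probe set, so none of them tested the call without that probe set. One setting left out probe sets whose names end in _a_at, _s_at or _x_at, and the only JAG2 probe set ends in _a_at. The ending alone was the rule, and whether such probe sets share probes with other genes was not checked. The size of these 5 changes did not always hold. The log2 fold change of DLL1 ran from -4.52 to -0.55 and that of JAG1 from -1.97 to -1.23. That of HES1 ran from -1.09 to -0.37 and that of NOTCH2 from 0.49 to 0.84. The other DLL1 probe sets were not called in VM-CUB1, at -0.34 (limma adjusted p = 0.0199) and -0.12 (limma adjusted p = 0.684). The called DLL1 probe set was the lowest of the gene in every HOTAIR array and the highest in every vector array. The median of probe sets, at -0.55, thus set the lower of the other values with HOTAIR against the higher with vector. It was larger than the change of either. Shares of all genes called under the other settings are not given here, so the counts below cannot be read as particular to these genes. In 5637 the number of Notch genes called was 0. It became 3 with the probe set of largest variance, 3 with the threshold on the adjusted p raised to 0.05, and 1 with the methods' t-test. The 5 probe sets called there became 2 with the methods' t-test, 2 with the replicate block and 1 to 4 with an array left out. It was 1 without HOTAIR replicate 1 or 3 and 3 without HOTAIR replicate 2 or vector replicate 1 or 3. Without probe sets ending in _a_at, _s_at or _x_at, 26 of the 55 further genes were left. Of these 10 were called in VM-CUB1 and 5 in 5637. Over all 55, the methods' t-test called 21 in VM-CUB1, against 31 in the main fit, and 10 in 5637, against 17. Uncalled values changed sign for NOTCH1 in VM-CUB1 (0.23, largest variance), DLL1 in 5637 (0.03, median of probe sets) and DLL4 in 5637 (0.20, largest variance; 0.01, arrays shifted to a median of 0; 0.01, quantile normalization). With an array left out NOTCH3 in VM-CUB1 ran from -0.14 to 0.02, DLL4 in VM-CUB1 from -0.10 to 0.00 and DLL4 in 5637 from -0.04 to 0.04. The cause was not tested, apart from the smaller number of genes in the setting without those name endings. Same-numbered arrays of a line correlated at -0.045 to 0.083 in their deviations from the group means, and unlike-numbered arrays at -0.069 to 0.079. With 3 arrays per group this cannot settle whether the numbers pair the arrays, and the main fits did not use them as pairs. The replicate block left the number of Notch genes called at 5 in VM-CUB1 and 0 in 5637 and gave 4 for the difference between the lines, against 6.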
